A study of Mus musculus with 4 samples.

Results

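Described here are 9 transcription factor genes that pattern the midbrain, the hindbrain and neighbouring tissues of the early embryo: the engrailed genes En1 and En2, Gbx2, Lmx1b, Egr2 and the Iroquois genes Irx1, Irx2, Irx3 and Irx5. They were taken by name, as every probe set whose single symbol in the platform annotation was one of these genes. They are 9 of the 18193 genes named in this way, with 11 probe sets of the 45101 on the array, 2 each for Lmx1b and Egr2 and 1 for each other gene. A filter on dim probe sets, which asked for a log2 intensity above 5 on at least 2 of the 4 arrays, kept 3 of the 11 (Irx1, Irx3 and Irx5) and 13288 of all.

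En1 and En2 are homeodomain factors of the midbrain-hindbrain boundary, the isthmic organizer, which forms where Otx2 in front meets Gbx2 behind and which signals through Wnt1 and Fgf8. Egr2, also called Krox20, is a zinc finger factor best known for its stripes in the segmented hindbrain, where it acts upstream of Hox genes, and it also belongs to a family of genes induced by growth factors. Lmx1b is a LIM homeodomain factor of the isthmus and the dorsal limb. Iroquois factors are homeodomain proteins of the TALE class that divide the neural plate along its length, and several are also known in the foregut and its lung buds or in the heart.

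Samples came from ARC/s mouse embryos at embryonic day 8.5 with 4 to 5 somites, and each array held RNA from a pool of 15 to 20 tissue pieces. The source labels differ on the stage, as they give 3 and not 4 as the lowest somite number on every array. There were 2 arrays of foregut endoderm, dissected from the anterior intestinal portal, and 2 of mesoderm and ectoderm combined from the head folds and the heart, with 1 array of either tissue in each of 2 experiments. No genotype or agent differed between the groups. Tissues of the first experiment were separated by hand and those of the second after trypsin and pancreatin, so experiment and dissection cannot be told apart. The labels do not say that the pools came from separate litters, so p-values measure only the spread between these arrays. In such pools, fewer cells of a type and less RNA per cell cannot be told apart either.

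Marker genes showed where arrays departed from their labels. Of 12 gut endoderm markers, 11 passed the filter, and in each experiment all 11 stood at least 2-fold higher in endoderm. This list was made with earlier results of these data known, so it is no independent check of the labels. Foregut endoderm 2, called ectoderm in 1 description field, had Foxa1 at a log2 intensity of 10.82, against 10.92 on foregut endoderm 1. The 10 heart muscle markers summed to a linear intensity of 101 on mesoderm and ectoderm 1, which is labelled as holding heart tissue, and to 76056 on mesoderm and ectoderm 2. They summed to 9099 on foregut endoderm 1 and 324 on foregut endoderm 2. Member values are therefore given array by array, with the range of the tissue difference when single arrays are left out. The lowest log2 value of an array lay between 2.25 and 2.28, and a value within 0.1 of it is said to be at the floor. Across all 13288 probe sets limma called 0 tissue differences (0% at an adjusted p under 0.05), with 395 higher and 105 lower in endoderm at an unadjusted p under 0.05.

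**Figure D1:**
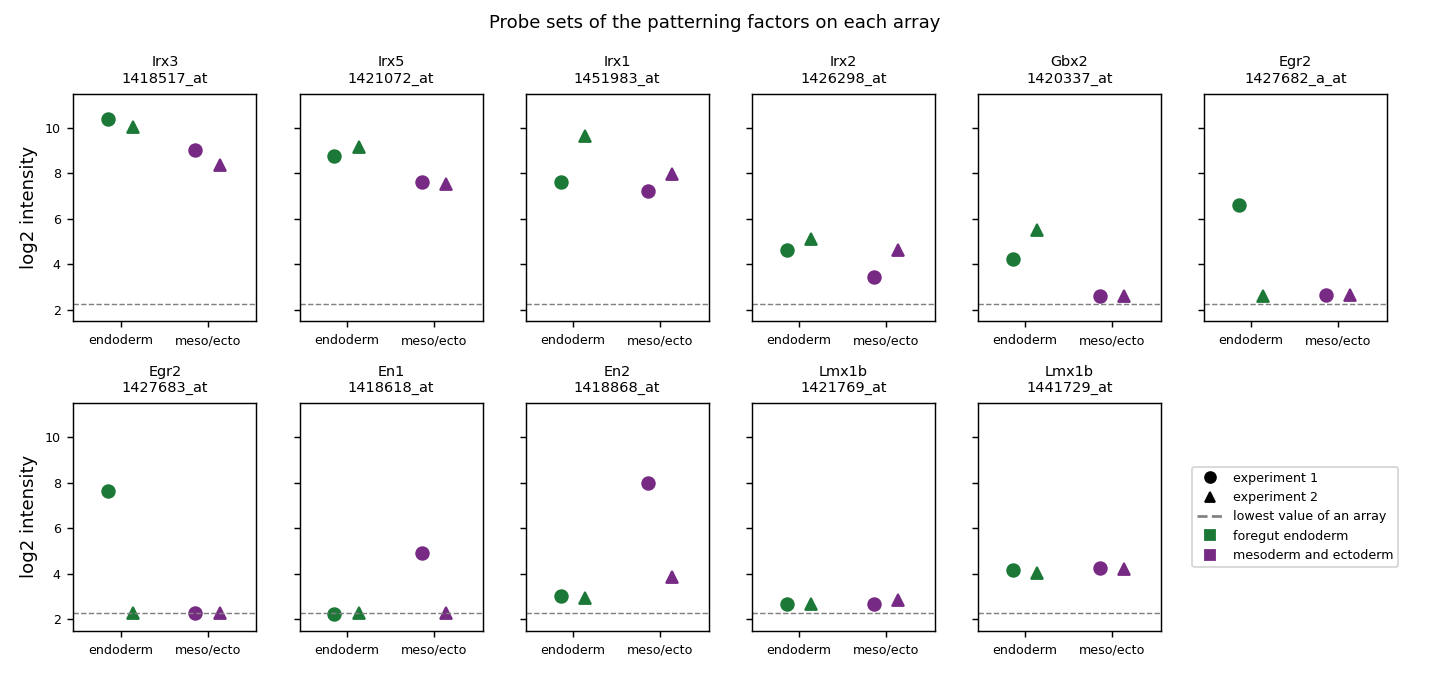
Log2 intensity (vertical axis) of the 11 probe sets on the 4 arrays, 1 point per array, with circles for the first and triangles for the second experiment. Irx3 and Irx5 lie higher on both endoderm arrays than on both others, Gbx2 leaves its lowest level only in endoderm, Egr2 only on foregut endoderm 1, and En1 only on mesoderm and ectoderm 1.

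The Iroquois genes Irx3 and Irx5 were well above the filter on all 4 arrays, and both lay higher in foregut endoderm. Irx3, which acts in neural, lung and limb development (probe set 1418517_at), had log2 intensities of 10.36 and 10.02 on foregut endoderm 1 and 2 and of 9.01 and 8.38 on mesoderm and ectoderm 1 and 2. The lowest endoderm array was 1.01 log2 units above the highest other array, and the arrays of a tissue differed by at most 0.63. The means were 10.19 ± 0.24 and 8.70 ± 0.44 (SD, n = 2), and endoderm was higher by 1.49 ± 0.40 log2 units (SE, limma), or 2.82-fold. In limma Irx3 had an unadjusted p of 0.0233 and an adjusted p of 1.00 over all probe sets. Within the experiments the difference was 1.35 and 1.64, and with each array left out in turn it spanned 1.18 to 1.81.

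Irx5, the neighbour of Irx3 in the genome (probe set 1421072_at), had 8.77 and 9.15 on the endoderm arrays and 7.64 and 7.53 on the others. Its tissues did not overlap, and the gap between them was 1.13 log2 units. The difference was 1.38 ± 0.34 (SE, limma), or 2.59-fold, with an unadjusted p of 0.0176 and an adjusted p of 1.00. It was 1.13 in the first and 1.62 in the second experiment, and it spanned 1.18 to 1.57 when single arrays were left out. With the replicate number as a block, the adjusted p in limma was 0.435 for Irx3 and 0.476 for Irx5.

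Irx3 and Irx5 were thus 2 of the 3 kept members that passed 2-fold in each experiment with endoderm higher, where 3.57% of all kept probe sets were, and 0 of 3 were lower, against 1.00%. Tissues that did not overlap, as for these 2 genes, were found with both endoderm arrays on top for 16.4% of kept probe sets and with both at the bottom for 9.05%. The 2-fold count of 2 fell to 1 when arrays were centred on their medians or quantile normalized, because the first-experiment difference of Irx5 was then 0.89 or 0.92. Differences of Irx1, Irx3 and Irx5 kept their direction in both experiments under these scalings. The median difference of all kept probe sets was 0.10 as deposited and -0.08 after median centring. Of the 10 heart muscle markers, 9 were higher on foregut endoderm 1 and on mesoderm and ectoderm 2 than on both other arrays. The exception was the cardiac homeobox gene Nkx2-5, with 5.50 and 7.66 in endoderm and 3.71 and 6.91 outside it, higher in endoderm in both experiments. The summed gut endoderm markers were higher on both endoderm arrays, with 6894 and 16770 in endoderm and 549 and 1307 outside it (Nkx2-1 of these 12 was at the floor throughout). In both tissues this sum was higher in the second experiment. From the first to the second, Irx3 changed by -0.34 log2 units in endoderm and -0.63 outside it. Irx1 changed by 2.03 and 0.76, and Irx5 by 0.39 and -0.11. The part of tissue make-up in the Iroquois differences was not tested.

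**Figure D2:**
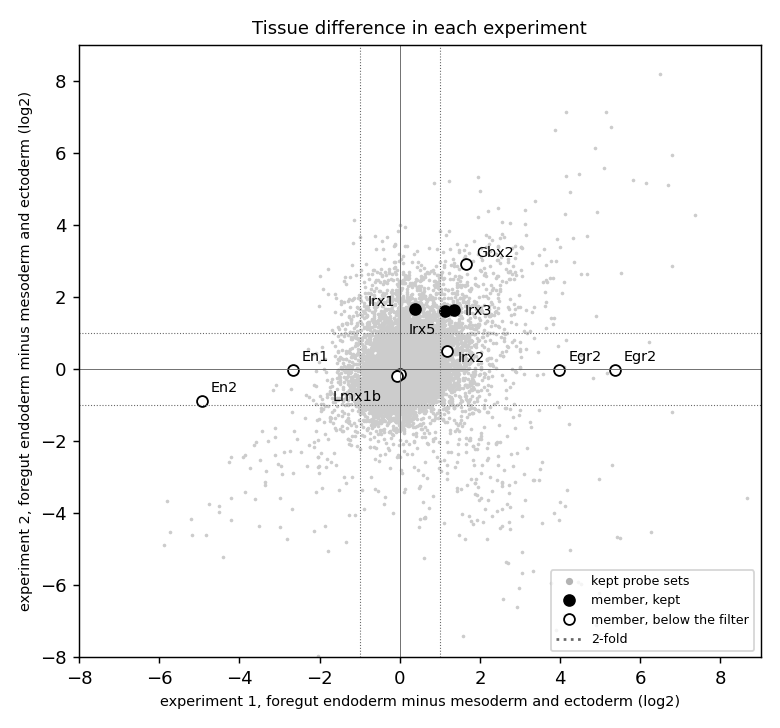
Foregut endoderm minus mesoderm and ectoderm in log2 units, for the first experiment (horizontal axis) and the second (vertical axis). Grey points are the kept probe sets, of which 10 lie beyond the axes, black points the kept members, open points the members below the filter, and dotted lines 2-fold. Irx3, Irx5 and Gbx2 lie past 2-fold in both experiments, and Egr2, En1 and En2 lie along the axis of the first.

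Irx1 and Irx2 sit side by side in the other Iroquois cluster, and their tissue differences were less even. Irx1 (probe set 1451983_at) had 7.61 and 9.65 in endoderm and 7.23 and 7.99 in mesoderm and ectoderm. Foregut endoderm 2 stood out as high and the other 3 arrays lay together, so the tissues overlapped. The difference of 1.02 ± 0.85 (SE, limma) had an unadjusted p of 0.303 and an adjusted p of 1.00, with 0.38 in the first and 1.66 in the second experiment. With the replicate number as a block its SE was 0.43, at a limma unadjusted p of 0.103 and an adjusted p of 0.541. Without foregut endoderm 2 the difference was 0.00, and without foregut endoderm 1 it was 2.04. Irx1 also lay 1.40 ± 0.43 (SE) log2 units higher in the second experiment with tissue as a term, at a limma adjusted p of 0.167. That comparison of experiments, in which limma called 0 of 13288 probe sets and 3996 had an unadjusted p under 0.05, gave -0.48 ± 0.24 for Irx3 (adjusted p 0.283) and 0.14 ± 0.27 for Irx5 (adjusted p 0.756).

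Irx2 was below the filter (probe set 1426298_at), at 4.63 and 5.13 in endoderm and 3.45 and 4.62 outside it. Its highest level was on foregut endoderm 2 and its lowest on mesoderm and ectoderm 1, while the remaining arrays were level with each other. The difference was 1.18 in the first and 0.51 in the second experiment, and it spanned 0.26 (without mesoderm and ectoderm 1) to 1.43 with single arrays left out. In a limma fit of all 45037 probe sets without a filter, its mean difference of 0.85 ± 0.56 (SE) had an adjusted p of 0.471.

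The relatives in these clusters were at or near the floor. Irx6, which follows Irx5 without a protein-coding gene between them in RefSeq's table, was at the floor on all 4 arrays. Irx4, the ventricular Iroquois gene of the heart, which follows Irx2 in the same way, was at the floor on 3 arrays and at 2.98 on mesoderm and ectoderm 2, the array with the highest heart muscle sum. The genes of a cluster were thus not all alike. Irx3 and Irx5, between which RefSeq's table lists 0 protein-coding genes, resembled each other more than either resembled Irx1. With each gene's 4 values set to a mean of 0, the distance between Irx3 and Irx5 was 0.64 log2 units, against 2.00 between Irx3 and Irx1 and 1.36 between Irx5 and Irx1. Among 7801 other genes Irx5 was the 105th nearest to Irx3, and Irx1 the 5419th.

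The 3 genes nearest to Irx3 by that distance over 4 arrays were Kmt2e (0.18), Kdm5b (0.22) and Heph (0.26). Those nearest to Irx5 were Coro2a (0.13), Ofd1 (0.14) and Dapk1 (0.17), and those nearest to Irx1 were Bex4 (0.22), Grb7 (0.27) and Rabgap1l (0.30). Kmt2e, for example, had log2 intensities of 9.81 and 9.57 in endoderm and 8.46 and 7.68 outside it. With so few arrays and so many genes, close matches of this kind are a description only.

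The sequence before the start of Irx3 is shown because this gene had the largest mean difference of the 3 kept members. RefSeq's promoter table (build GRCm38.p6) held entries for 6 of the 9 genes, and the 250 bases upstream of a start are printed 5′ to 3′ on the gene's strand. Capitals mark matches, on either strand, to any of 8 short motifs: the homeodomain core TAATTA, the Iroquois motif ACANNTGT, the forkhead motif TGTTTAC, the E-box CACGTG, the CCAAT box, the GC box GGGCGG, the TATA box TATAAA and the CArG box of serum response factor.
Irx3, chr8:91801655-91801904, minus strand: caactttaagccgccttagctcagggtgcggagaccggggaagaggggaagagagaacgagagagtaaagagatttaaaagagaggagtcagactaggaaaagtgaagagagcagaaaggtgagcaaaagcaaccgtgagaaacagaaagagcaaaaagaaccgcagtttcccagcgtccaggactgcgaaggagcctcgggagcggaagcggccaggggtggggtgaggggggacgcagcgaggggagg
This window held none of the 8, with a GC content of 56.0%, near the median of 52.4% over 32851 windows. No match says only that these letters are not in this window. The forkhead letters were in 3.17% of all windows and the Iroquois letters in 6.31%.

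Gbx2, the posterior partner of Otx2 at the isthmus, which is also known in pharyngeal tissue, left background on the endoderm arrays only. Probe set 1420337_at had 4.25 and 5.52 on foregut endoderm 1 and 2, against 2.60 and 2.61 on the mesoderm and ectoderm arrays. Those latter values lay 0.32 log2 units above the lowest value of either array, so the tissue differences of 1.65 and 2.91 in the 2 experiments are lower bounds. Only 1 array passed a log2 intensity of 5, and the probe set was below the filter. Without a filter the difference was 2.28 ± 0.56 (SE), at a limma unadjusted p of 0.0360 and an adjusted p of 0.467. Leaving out single arrays gave 1.65 to 2.92, and adding an offset of 16 to the intensities before the logarithm reduced the difference to 1.08. With all 11 member probe sets counted, Gbx2, Irx3 and Irx5 made 3 that passed 2-fold in each experiment with endoderm higher, where 1.28% of all 45037 probe sets were, and 0 were lower, against 0.373%. Gbx1, its relative, was at the floor on all 4 arrays.
Gbx2, chr1:89931177-89931426, minus strand: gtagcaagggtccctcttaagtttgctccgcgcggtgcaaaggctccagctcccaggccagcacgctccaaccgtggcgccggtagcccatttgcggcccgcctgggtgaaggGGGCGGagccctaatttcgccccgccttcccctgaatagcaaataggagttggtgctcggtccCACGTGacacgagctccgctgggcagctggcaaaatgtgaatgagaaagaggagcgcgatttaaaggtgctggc
The window before Gbx2, given because this member stayed at background outside the endoderm, held an E-box from 74 to 69 bases and a GC box from 137 to 132 bases before the start. E-boxes of this kind were found in 6.02% of all windows and GC boxes in 32.7%.

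Egr2 was high on 1 array only. Probe set 1427683_at of this gene reached 7.65 log2 units on foregut endoderm 1 and was at the floor on foregut endoderm 2 (2.27) and on mesoderm and ectoderm 1 (2.28) and 2 (2.28). The other probe set, 1427682_a_at, gave the same picture, with 6.62 on foregut endoderm 1 and 2.63, 2.64 and 2.65 on foregut endoderm 2 and on mesoderm and ectoderm 1 and 2. Within the first experiment Egr2 was therefore at least 41.3-fold higher in endoderm by the first probe set. By the second probe set it was 15.8-fold higher, against a value 0.36 log2 units above the lowest of its array. Within the second experiment the differences were -0.02 and -0.02, with no level above background in either tissue. As tissue means the differences were 2.67 ± 2.38 and 1.98 ± 1.76 (SE), with limma adjusted p of 0.563 and 0.564 without a filter. Without foregut endoderm 1 the differences were -0.02 and -0.01, and without foregut endoderm 2 they were 5.36 and 3.98.

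Both Egr2 probe sets were among the 66 (0.147% of 45037) that were at least 4-fold higher on foregut endoderm 1 than on every other array, a comparison chosen after the values were seen. Of the 7 Hox genes of the hindbrain list with a named probe set, 2 were among the same 66. Hoxb3 (probe set 1456229_at) had 6.47 on foregut endoderm 1 against 2.30, 2.36 and 2.62 elsewhere. Hoxa2, a known target of Egr2 in the hindbrain, had 4.51 on that array and was at the floor on the other 3. A further probe set of Hoxb3 had 4.70 on foregut endoderm 1 against 3.38 to 3.60 elsewhere. Hoxb1, a Hox gene of the hindbrain and of foregut endoderm, behaved differently, with 3.25 and 5.36 in endoderm and 2.46 and 2.28 outside it. Hoxb2 was at the floor on all 4 arrays, Hoxa3 did not exceed 2.45 or Hoxd3 2.40, and Hoxb4 had 3.48 and 3.40 in endoderm and 2.69 and 3.42 outside it.

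Partners and relatives of Egr2 gave few differences. Epha4, a receptor of hindbrain segments and a known Egr2 target, had 8.01 and 8.02 in endoderm and 8.36 and 8.38 outside it. Nab1, a corepressor that binds Egr proteins, lay between 7.37 and 8.33 on the 4 arrays, and Nab2 and Egr3 were at the floor on all 4. Egr1, an immediate early gene of the same family, had 6.49 and 5.74 in endoderm and 5.48 and 5.62 outside it, so foregut endoderm 1 was highest here too. Fos was at 9.07 and 8.28 in endoderm and at 6.06 and 7.53 outside it. Of 11 immediate early genes listed after Egr2 was seen, 5 passed the filter, and the summed linear intensity of all 11 was 1045 and 1054 on the endoderm arrays and 379 and 700 on the others. Fosb and Junb were at the floor on foregut endoderm 1.

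Markers of other tissues also differed between the endoderm arrays. Foregut endoderm 1 had a heart muscle sum of 9099 against 324 on foregut endoderm 2, with 101 and 76056 on mesoderm and ectoderm 1 and 2. The endothelial sum over 8 genes was 745 against 178, with 218 and 580 outside endoderm, and Pecam1 was at the floor throughout. The red blood cell sum over 5 genes was 2384 against 209, with 410 and 2445 outside endoderm, and Alas2 was at the floor throughout. The neural crest sum over 9 genes was 2055 against 891, with 2694 and 1793 outside endoderm. On foregut endoderm 1 it was carried by Snai2 (983 against 193), Erbb3 (529 against 501) and Tfap2a (314 against 27.4). Of the 9, 6 were higher on foregut endoderm 1 by more than 0.1 log2 units, and 0 on foregut endoderm 2. Among these Sox10 differed little, with 52.1 against 44.5. The 13 neural plate markers were split. Their sum, carried by Sox2 and Otx2, was 2073 on foregut endoderm 1 against 4650 on foregut endoderm 2, while their median log2 level was 4.49 against 2.68. By more than 0.1 log2 units, 5 of the 13 were higher on foregut endoderm 1, among them Sox1 (6.07 against 3.31) and Lhx2 (4.92 against 2.27), and 7 were higher on foregut endoderm 2. Outside endoderm the neural plate sum was 7144 and 6048 and the median 7.97 and 6.98. The part of these tissues, or of dissection by hand, in the Egr2 signal was not tested.
Egr2, chr10:67537619-67537868, plus strand: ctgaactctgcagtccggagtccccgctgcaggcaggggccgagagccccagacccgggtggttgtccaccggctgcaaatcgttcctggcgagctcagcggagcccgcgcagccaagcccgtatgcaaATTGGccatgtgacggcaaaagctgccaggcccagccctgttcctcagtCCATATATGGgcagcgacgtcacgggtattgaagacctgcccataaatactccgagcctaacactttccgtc
This window before 1 of the starts of Egr2 is given because it holds a CArG box, the element bound by serum response factor, from 72 to 63 bases before the start, beside a CCAAT box from 121 to 117. CArG boxes were found in 1.47% of all windows, and 4 of the 5 Egr2 windows in the table held 1. Of these windows 3 overlap and hold the same box, so they do not count separately. A match is a description of the letters and not of binding.

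**Figure D3:**
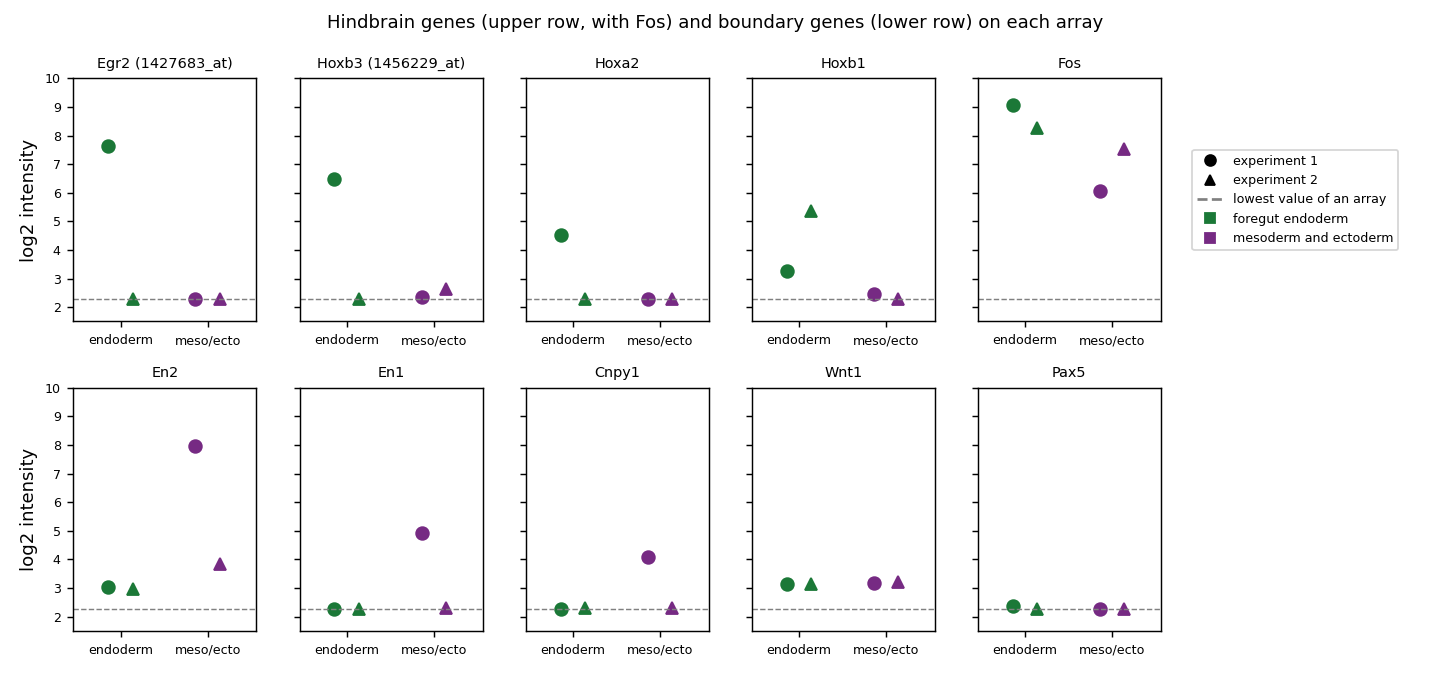
Log2 intensity (vertical axis) on each array of Egr2, Hox genes and Fos in the upper row, and of En2, En1 and other boundary genes in the lower row, with 1 point per array. Egr2, Hoxb3 (1456229_at) and Hoxa2 are high on foregut endoderm 1 alone, and En2, En1 and Cnpy1 are highest on mesoderm and ectoderm 1.

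The engrailed genes were high on the mesoderm and ectoderm array of the first experiment. En2 (probe set 1418868_at) had 7.97 on mesoderm and ectoderm 1 and 3.85 on mesoderm and ectoderm 2, against 3.04 and 2.96 on the endoderm arrays. Both mesoderm and ectoderm arrays lay above both endoderm arrays, but by very different amounts. En2 was 30.4-fold lower in endoderm in the first experiment and 1.85-fold lower in the second. The endoderm values lay 0.79 and 0.69 log2 units above the lowest value of their arrays. En1 (probe set 1418618_at) had 4.91 on mesoderm and ectoderm 1 and was at the floor on the other 3 arrays, hence at least 6.34-fold lower in endoderm in the first experiment, with no level above the floor in the second.

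Neither passed the filter. Without a filter the mean differences were -2.91 ± 1.82 (SE) for En2 and -1.34 ± 1.16 for En1, at limma adjusted p of 0.467 and 0.553. Without mesoderm and ectoderm 1 these differences were -0.85 and -0.03, and without mesoderm and ectoderm 2 they were -4.97 and -2.66. Both genes were among the 57 probe sets (0.127% of 45037) at least 4-fold higher on mesoderm and ectoderm 1 than on every other array. Of the 13 neural plate markers, Zic1 also had a probe set among the 57. Its brightest probe set was not among them, with 8.14 on mesoderm and ectoderm 1 and 6.88 on mesoderm and ectoderm 2. Of the 26 genes of the boundary list and the 24 hindbrain genes none had a probe set among the 57. Cnpy1, a boundary gene of Fgf signalling named here after its value was seen, had 4.07 on mesoderm and ectoderm 1. It had 2.25 and 2.29 on foregut endoderm 1 and 2 and 2.30 on mesoderm and ectoderm 2.
En1, chr1:120602237-120602486, plus strand: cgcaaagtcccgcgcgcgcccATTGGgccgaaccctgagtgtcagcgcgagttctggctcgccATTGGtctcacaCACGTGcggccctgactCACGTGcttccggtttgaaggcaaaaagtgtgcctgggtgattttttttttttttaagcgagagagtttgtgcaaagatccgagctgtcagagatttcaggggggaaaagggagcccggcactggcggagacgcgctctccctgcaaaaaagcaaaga
The sequence before En1 is shown because this gene left the floor on mesoderm and ectoderm 1 only. It held E-boxes from 175 to 170 and from 158 to 153 bases and CCAAT boxes from 229 to 225 and from 187 to 183 bases before the start, and the CCAAT box was found in 33.8% of all windows.

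The organizer's own signals were not seen beside the engrailed genes. Fgf8, the isthmic growth factor, and Fgf17 were at the floor on all 4 arrays, Pax5 did not exceed 2.37, and Wnt1 lay between 3.13 and 3.22, moving only as the lowest values of the arrays did. These genes were each read on their brightest probe set, and a level at background does not show that a transcript was absent. Otx2, the anterior partner of Gbx2, had 10.91 and 9.80 in mesoderm and ectoderm and 8.23 and 9.88 in endoderm, with its highest level on mesoderm and ectoderm 1. The 13 neural plate markers summed to 7144 on mesoderm and ectoderm 1 and 6048 on mesoderm and ectoderm 2, and Nkx6-1 of this list was at the floor on all 4 arrays. Heart muscle markers summed to 101 and 76056 on these arrays. The part of the amount of heart or of midbrain tissue in the engrailed difference was not tested.

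Lmx1b was nearly level across the arrays. Probe set 1441729_at had 4.18 and 4.04 in endoderm and 4.24 and 4.23 outside it. Probe set 1421769_at had 2.68 and 2.70 in endoderm and 2.69 and 2.84 outside it. Once the lowest value of each array was subtracted, the 4 values spanned 0.18 log2 units for the first and 0.15 for the second. With single arrays left out, the tissue difference spanned -0.19 to -0.06 and -0.15 to 0.01. The limma adjusted p without a filter was 0.467 and 0.583. Lmx1a was at the floor on all 4 arrays.

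The wider set of boundary and hindbrain genes was read from a list for each. Of 28 boundary genes 26 had a named probe set and 12 were kept. Of the 12, 2 were higher and 3 lower in endoderm by 2-fold or more in each experiment, against 3.54% and 1.24% of 7802 kept genes, and limma called 0. The median difference over the 12 was -0.24 in the first and 0.33 in the second experiment, against 0.15 and 0.01 over all kept genes. On the higher side were the Fgf feedback phosphatase Dusp6 (2.47 and 1.88 log2 units in the 2 experiments) and Etv5, an ETS factor induced by Fgf (2.16 and 2.58). On the lower side were the anterior neural ridge gene Sp8 (-5.88 and -4.89), the POU factor Pou3f1 (-1.79 and -5.04) and Otx1, a forebrain and midbrain relative of Otx2 (-2.94 and -2.90). Limma's adjusted p was 0.810 for Dusp6, 0.798 for Etv5, 0.724 for Sp8 and Otx1 and 1.00 for Pou3f1. With single arrays left out, the mean differences spanned 2.00 to 2.35 for Dusp6, 2.16 to 2.58 for Etv5, -6.22 to -4.55 for Sp8 and -2.93 to -2.91 for Otx1. That of Pou3f1 was -1.79 without foregut endoderm 2 and -5.04 without foregut endoderm 1, as its endoderm arrays stood at 6.68 and 3.43.

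Of 30 hindbrain genes 24 had a named probe set and 12 were kept. Of all kept genes, 3.54% were higher and 1.24% lower in endoderm by 2-fold or more in each experiment. Of the 12, only Meis2, a TALE cofactor of Hox proteins, passed 2-fold in each experiment with endoderm higher (1.44 and 1.22), and 3 were lower. These were the nuclear receptor gene Nr2f1 (-2.03 and -7.97, with foregut endoderm 2 at the floor), the ephrin receptor Epha7 (-1.59 and -2.67) and Aldh1a2, which makes retinoic acid (-1.06 and -1.74). Limma's adjusted p was 0.979 for Meis2, 0.985 for Epha7 and 1.00 for Nr2f1 and Aldh1a2. The mean difference spanned 1.25 to 1.40 for Meis2 with single arrays left out. Without foregut endoderm 2 it was -1.74 for Nr2f1, -1.59 for Epha7 and -0.87 for Aldh1a2, and without foregut endoderm 1 it was -8.26, -2.67 and -1.92. The median over the 12 was 0.05 in the first and -0.19 in the second experiment, against 0.15 and 0.01 over all kept genes.

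**Figure D4:**
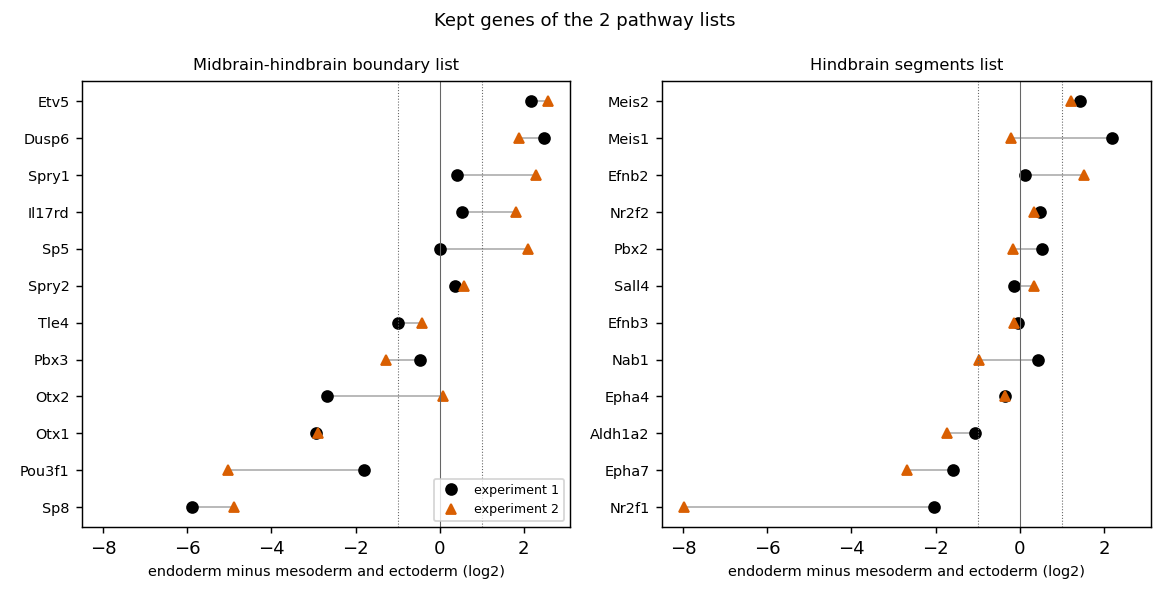
Foregut endoderm minus mesoderm and ectoderm (log2, horizontal axis) in the first experiment (circles) and the second (triangles) for the 12 kept genes of the boundary list and the 12 of the hindbrain list, 1 gene per line, with dotted lines at 2-fold. Etv5, Dusp6 and Meis2 lie past 2-fold above 0 in both experiments, and Sp8, Otx1, Pou3f1, Nr2f1, Epha7 and Aldh1a2 past 2-fold below 0.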

How the data were processed

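Gene expression was measured on Affymetrix mouse MOE430 arrays after RNA had been amplified in 2 rounds, per the labels' protocols. The authors deposited 1 intensity per probe set and array. Per the series' design text these come from GC-RMA, run in GenePattern, while the submitters' processing notes name RMA. Versions and settings are not stated there, and the linear scale was read from the values. GC-RMA sets dim probe sets to a near-constant level, so folds against that level are bounds.

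Here log2 was taken, 64 control probe sets were left out, and the filter above was applied. Names came from GEO's platform annotation, in which 34958 probe sets had 1 symbol, 932 several and 9211 none. The tissue comparison used limma (version 3.58.1, R 4.3.3) with lmFit and eBayes, two-sided, with Benjamini-Hochberg adjustment over all probe sets and a threshold of 0.05, and was also tested on simulated data. Median intensity was 5.72 to 6.15 per array, and the small number of arrays limits the precision. Sample numbers pair the arrays, as the labels' protocols give same-numbered tissues 1 way of dissection, and same-numbered deviations from the tissue means correlated at 0.56. Members and lists were chosen with earlier results of these data known. Named list genes are those that differed by 2-fold or more the same way in each experiment, plus close relatives, and others are said to be chosen after their values were seen or stand as partners of a member. Alternatives were filters, scalings, an offset of 16, other folds, a block and leaving out each array.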

Additional observations from a re-analysis of the deposited data

How the results depend on the processing

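In limma, 0 tissue differences were called under each filter, scaling and offset tried, with each array left out, and under a replicate block (0 calls, lowest adjusted p 0.351, 1326 at an unadjusted p under 0.05), and the block changed no call of a member. The lowest adjusted p of these alternatives was 0.0847, without a filter. Differences between experiments, 0 as deposited, numbered 423 after median centring and 1323 after quantile normalization, none of them a member, and could not be fitted with an array left out. Counts of probe sets at least 2-fold apart in both experiments were 474 higher and 133 lower. At 1.5-fold they were 1172 and 437, and at 4-fold 118 and 51. Lower counts were 211 after median centring and 219 after quantile normalization. With 1 array left out, the remaining array of that tissue served in both experiments, so the 2 differences no longer came from separate pairs. Counted so, higher ones ran from 616 to 1097 and lower ones from 204 to 525, and members were counted the same way. Member probe sets higher in both numbered 2, but 1 after median centring, 1 after quantile normalization, 0 at 4-fold, 2 to 3 with 1 array left out, and 3 with all members counted, an alternative added after the data were seen. The number of member values at the floor was 6 with a width of 0.1 or 0.3. Among single members, each by 1 probe set, 77 alternatives did not turn the direction or change the call. As limma called 0 tissue differences in every setting, an unchanged call says little. The 77 include differences that shrank greatly, so their number does not measure stability. Without mesoderm and ectoderm 1, En1 went from -1.34 to -0.03 and En2 from -2.91 to -0.85. Irx1 went from 1.02 to 0.00 without foregut endoderm 2. Another 2 alternatives moved the size by more than the replicate spread (Gbx2 to 1.08 with the offset and Lmx1b to -0.30 after median centring). The sign turned in 1, for Egr2 without foregut endoderm 1, as its difference of 1.98 ran from -0.01 to 3.98 over the arrays left out. Members below the filter have no value under quantile normalization or the filter at 6. Dim members rest on signal just over background.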

Other observations

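Single-array signals were not rare in this series. At least 4-fold higher on that array than on every other were 66 probe sets for foregut endoderm 1, 118 for foregut endoderm 2, 57 for mesoderm and ectoderm 1 and 135 for mesoderm and ectoderm 2. A few examples follow, chosen after their values were seen. On foregut endoderm 1 the mesenchymal transcription factor Ebf1 was at 5.94 and elsewhere at 2.57 to 2.87, and the forkhead gene Foxc2 was at 6.92 against 2.27 to 4.50. Cd93, a surface protein of endothelium (probe set 1441908_x_at), was at 5.87 against 2.46 to 2.93. On mesoderm and ectoderm 1 Ncan, a proteoglycan of the nervous system, was at 7.16 and elsewhere at 2.65 to 3.46, and Lrrn1, a leucine-rich repeat protein of the midbrain boundary, at 7.62 against 3.06 to 4.52.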
